A study of Mus musculus with 16 samples.

Results

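Genes that mark endothelial cells, the cells lining blood and lymph vessels, were followed in bone and brain of Ali35 mice, a line with a mutation in the adaptor gene Shc2. The 10 genes were Eng, Robo4, Cdh5, Sox18, Sox17, Kdr, Flt1, Tek, Tie1 and Pecam1, out of 16593 gene symbols on the array, and every probe annotated to 1 of these symbols was taken. This gave 15 of 25697 probes, since Robo4 had 3 probes, Sox17, Flt1 and Pecam1 had more than 1, and the other 6 genes had 1 each. Total RNA of single mice, all of strain C3H/HeJ, had been hybridized to 16 one-colour bead arrays. The 4 groups, with 4 mice in each, were Ali35 mutant bone and wild-type bone at an age of 120 days, and Ali35 mutant brain and wild-type brain at an age of 3 days. Tissue and age therefore changed together, and the labels used here state neither sex nor zygosity. No probe carried the name Shc2, so the mutated gene was not analysed here.

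Endothelial cells build vessels under the control of a few receptor systems. The growth factor VEGF acts through the receptor Kdr, while Flt1 also binds VEGF and can act as a decoy. Angiopoietins act through Tek, with Tie1 as its co-receptor, and endoglin (Eng) is a co-receptor for BMP and TGF-beta ligands. Cdh5 and Pecam1 hold neighbouring endothelial cells together, Robo4 is a guidance receptor that stabilizes vessels, and Sox17 and Sox18 are related transcription factors of vessel development. In adult bone these cells form the sinusoids of the marrow and the capillaries next to the bone surface, and in the brain of pups they form a capillary bed that is still growing. Members of the ETS family of transcription factors, which bind a GGAA core, are known regulators of many endothelial genes.

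Values were normalized, background-subtracted fluorescence intensities in arbitrary units. An intensity of 16 served as the floor: lower values were raised to 16 ahead of the log2 step, and probes entered the test of a tissue when 4 or more of its 8 arrays read 16 or higher. On each bone array 47.3% of probes reached the floor, and on each brain array 42.3%. Of the 15 probes, 11 were tested in bone, for 9 genes, and 6 in brain, for 6 genes. Two-sided tests with limma were adjusted over all 12223 bone probes or all 10922 brain probes, and a change was called at a Benjamini-Hochberg adjusted p under 0.05. Bone arrays carried all 7 bone markers with a probe and 2 of 8 neuron markers above the filter. Brain arrays carried 6 of 8 neuron markers, without Snap25 and Tubb3, and 3 of 7 bone markers, without the osteocalcin gene Bglap. In Ali35 bone replicate 1, Xist, the RNA of the inactive X chromosome, read 221 and 167 on its probes, against 11.7 and 7.17 or less on all other bone arrays, and the Y-linked gene Eif2s3y read -2.50 against 410 to 686. Changes of the tested endothelial genes in bone are therefore also given without it.

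In Ali35 bone 4 of the 9 tested endothelial genes were higher than in wild-type bone: Eng, Robo4, Cdh5 and Sox18, by 1.61-fold to 2.03-fold. The other 5, Sox17, Flt1, Tek, Tie1 and Pecam1, did not pass the test, and Kdr lay below the floor on all 8 bone arrays. The 4 called probes were 36.4% of the 11 tested, against 12.7% of all bone probes that were called higher and 24.6% that were called in either direction. At an unadjusted p under 0.05 the share was also 36.4% of the 11 probes, against 38.3% of all bone probes. The 10 genes were chosen with earlier results of these data known, so these shares are a description and not a test. No probe of the 10 genes was called lower. Some markers of bone-forming cells were higher as well: 4 of 11 probes of the bone marker list were called, all higher, beside 12.7% of all bone probes. They were Col1a1, a chain of collagen I (log2 1.91 ± 0.23, 3.76-fold), the osteoblast transcription factor gene Sp7 (1.06 ± 0.11, 2.09-fold), the alkaline phosphatase gene Alpl (1.04 ± 0.20, 2.05-fold) and Col1a2 (0.76 ± 0.20). Ali35 replicate 1 read highest of the Ali35 arrays on each of these called probes. The probes of Sparc, Ibsp and Bglap did not pass. Bglap had -0.31 ± 0.24 and -0.22 ± 0.20 on its bright probes and 0.19 ± 0.33 on a dim probe. Over the 11 marker probes the median log2 change was 0.23 and 9 were positive. The part of these markers in the endothelial results was not tested. The median log2 change of the 11 endothelial probes was 0.19, against -0.04 over all bone probes. The tissue was profiled whole, so more endothelial cells and more RNA per endothelial cell cannot be told apart.

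**Figure D1:**
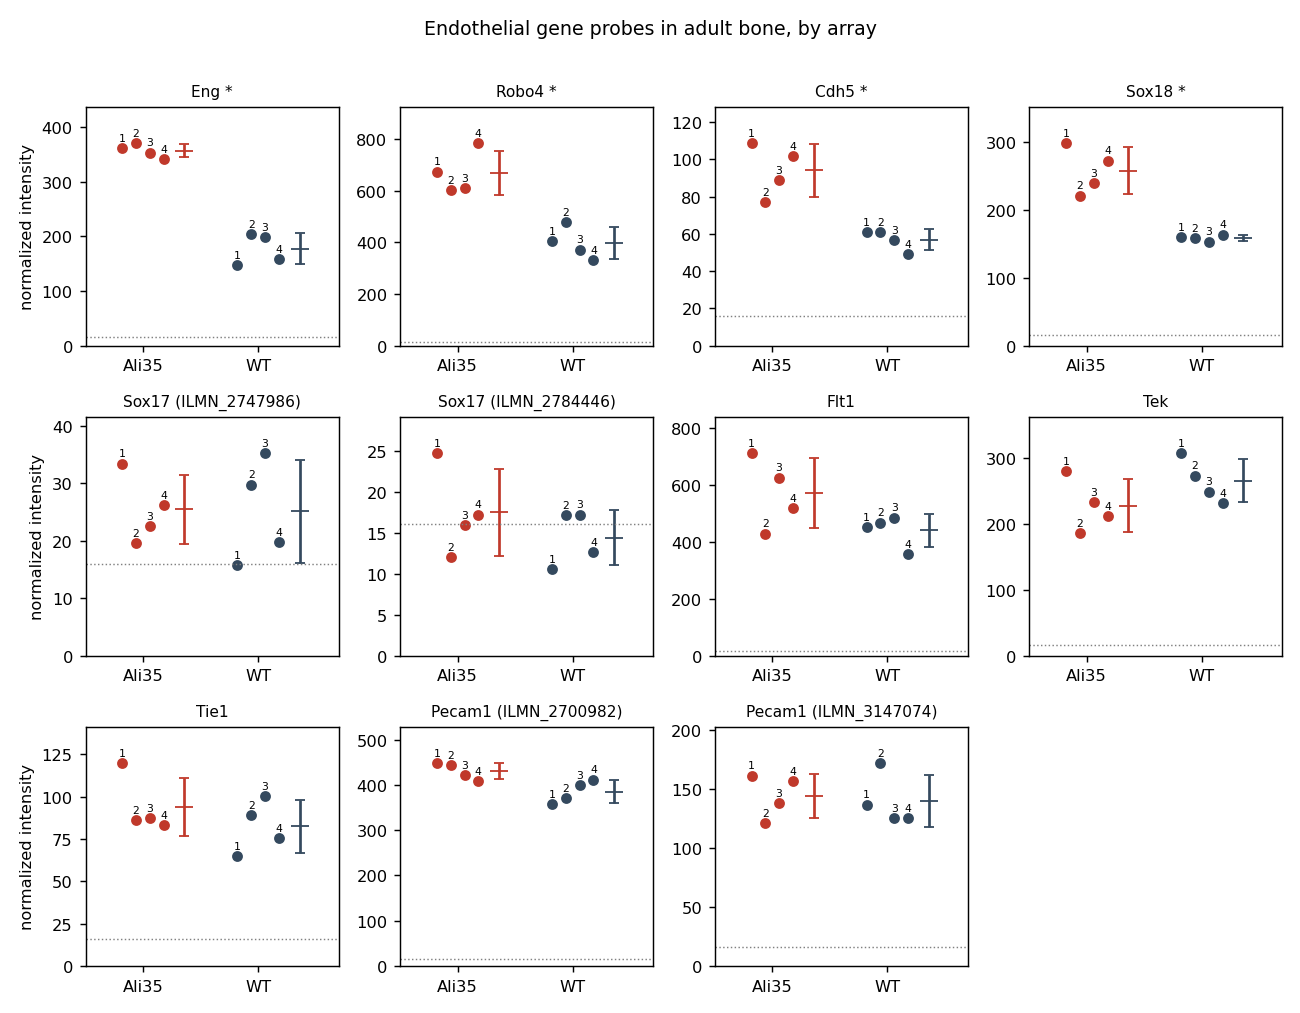
Normalized intensity (arbitrary units, linear axis from 0) of the 11 tested endothelial gene probes on each bone array, with replicate numbers above the points, Ali35 in red and wild type (WT) in blue. Bars give mean ± SD of 4 mice, the dotted line is the floor of 16, and a star marks an adjusted p under 0.05. For Eng, Robo4, Cdh5 and Sox18 all Ali35 arrays lie above all wild-type arrays.

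Eng had the largest change of the 10 genes in bone. It read 362, 371, 353 and 342 on the Ali35 arrays, against 147, 204, 199 and 159 on the wild-type arrays. The 4 Ali35 values lay close together and far above all wild-type values. The means were 357 ± 12.5 in Ali35 bone and 177 ± 28.5 in wild-type bone (SD, n = 4 mice each), with a log2 change of 1.02 ± 0.13 (SE, 2.03-fold, adjusted p = 0.00113, limma). Endoglin presents BMP ligands to the receptor kinase Acvrl1 on endothelial cells, and it is also found on activated macrophages and some stromal cells.

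Robo4 read 673, 602, 609 and 784 in Ali35 bone, against 405, 479, 372 and 331 in wild-type bone, on its bright probe. The groups did not overlap. The log2 change was 0.75 ± 0.14 (1.69-fold, adjusted p = 0.00633, limma), with means of 667 ± 84.4 in Ali35 and 397 ± 62.7 in wild type (SD, n = 4 each). The other 2 Robo4 probes lay below the floor on all 16 arrays, so the Robo4 result rests on a single probe.

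Promoter sequence is shown for both genes above that were called higher, and for Tek and Tie1, the angiopoietin receptors, which were not. The 250 bases upstream of the RefSeq start (GRCm38.p6) are written 5′ to 3′ on the strand of the gene. RefSeq promoters were matched for 6 of the 10 genes: Eng, Robo4, Kdr, Flt1, Tek and Tie1. Capitals mark the letters AGGAAG or their reverse complement CTTCCT, a longer form of the GGAA core of ETS factors.
Eng (chr2:32646345-32646594, plus strand): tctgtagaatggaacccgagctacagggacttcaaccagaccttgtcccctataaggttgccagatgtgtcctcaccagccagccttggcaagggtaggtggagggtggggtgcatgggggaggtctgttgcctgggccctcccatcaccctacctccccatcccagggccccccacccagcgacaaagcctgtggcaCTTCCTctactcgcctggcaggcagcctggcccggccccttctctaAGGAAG
Robo4 (chr9:37401722-37401971, plus strand): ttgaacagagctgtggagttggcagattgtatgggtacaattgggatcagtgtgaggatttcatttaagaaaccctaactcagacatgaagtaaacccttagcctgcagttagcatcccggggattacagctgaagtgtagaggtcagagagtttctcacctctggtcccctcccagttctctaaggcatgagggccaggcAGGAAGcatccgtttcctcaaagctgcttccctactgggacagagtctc
Tek (chr4:94739039-94739288, plus strand): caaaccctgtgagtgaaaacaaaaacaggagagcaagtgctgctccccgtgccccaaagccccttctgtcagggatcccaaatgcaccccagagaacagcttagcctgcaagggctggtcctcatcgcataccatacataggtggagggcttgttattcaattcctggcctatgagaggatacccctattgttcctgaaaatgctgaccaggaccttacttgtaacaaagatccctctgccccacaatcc
Tie1 (chr4:118489850-118490099, minus strand): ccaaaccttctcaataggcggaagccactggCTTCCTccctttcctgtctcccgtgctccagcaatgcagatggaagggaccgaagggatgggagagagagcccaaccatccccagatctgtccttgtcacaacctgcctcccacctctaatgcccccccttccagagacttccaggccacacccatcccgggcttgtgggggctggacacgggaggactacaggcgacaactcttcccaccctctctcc
AGGAAG was found, on either strand, 2 times in the Eng window, 1 time in that of Robo4, 1 time in that of Tie1, 2 times in that of Flt1 and 0 times in those of Tek and Kdr. Of 27025 promoters of the same length, 29.2% held it. The GGAA core, which each AGGAAG contains, was present in 93.4% of them, and in all 6 endothelial windows (2 in Tek to 7 in Tie1). The letters ACAAT, part of the site that Sox factors bind, were found 2 times each in the Robo4 and Tek windows and not in the others, against 28.3% of all promoters. Among the tested genes with a window, Eng and Robo4, which were called, held AGGAAG. So did Tie1 and Flt1, which did not pass, while Tek did not hold it. Cdh5 and Sox18 had no matched promoter, so the called genes as a set cannot be judged.

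Among the genes of cell junctions, Cdh5 was higher in Ali35 bone and Pecam1 did not pass. Cdh5, which encodes VE-cadherin, the main adhesion molecule of endothelial junctions, read 109, 77.0, 88.8 and 102 in Ali35 bone, against 60.9, 61.0, 56.5 and 49.0 in wild-type bone. All Ali35 values lay above all wild-type values. The means were 94.1 ± 14.1 and 56.9 ± 5.65 (Ali35 and wild type, SD, n = 4 each), a log2 change of 0.72 ± 0.13 (1.65-fold, adjusted p = 0.00637, limma). Pecam1, the adhesion molecule CD31, is carried by platelets and leukocytes as well as by endothelial cells. Its brighter probe read 448, 443, 422 and 409 in Ali35 bone, against 358, 371, 400.2 and 412 in wild-type bone. Of the Ali35 arrays 3 lay above all wild-type arrays, and the groups overlapped through replicate 4 of each. The log2 change was 0.16 ± 0.09 (95% confidence interval -0.05 to 0.37, adjusted p = 0.236, limma). The second Pecam1 probe had 0.05 ± 0.14 (interval -0.26 to 0.36) and ranged from 120.8 to 161 in Ali35 and from 125 to 172 in wild type.

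Of the Sox genes, Sox18 was higher in Ali35 bone and Sox17 did not pass on either of its probes. Sox18 read 299, 221, 239.7 and 273 on the Ali35 arrays, against 160.3, 159, 153 and 164 on the wild-type arrays. The wild-type values were nearly equal, and each Ali35 value lay above them. The means were 258 ± 34.4 in Ali35 and 159 ± 4.31 in wild type (SD, n = 4 each), a log2 change of 0.69 ± 0.11 (1.61-fold, adjusted p = 0.00398, limma). Sox17, its close relative, was dim: the brighter probe read 33.4, 19.6, 22.5 and 26.3 in Ali35 bone, against 15.7, 29.8, 35.2 and 19.8 in wild-type bone. The groups overlapped throughout. The log2 change was 0.06 ± 0.26 with an interval of -0.52 to 0.63 (adjusted p = 0.895, limma), the widest interval of the 11 probes. The second Sox17 probe reached the floor on 2 Ali35 and 2 wild-type arrays and had 0.13 ± 0.15.

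No VEGF receptor probe passed in bone. Flt1 read 711, 429, 626 and 517 in Ali35 bone, against 453, 467, 485 and 357 in wild-type bone. Ali35 replicate 2 lay within the wild-type range and the other 3 Ali35 arrays above it. The log2 change was 0.36 ± 0.17 (1.28-fold, interval -0.02 to 0.74, adjusted p = 0.151, limma), and it was 0.24 without Ali35 replicate 1. The second Flt1 probe lay below the floor on all 16 arrays. Kdr, the main signalling receptor for VEGF, read 4.15 to 6.17 in Ali35 bone and -0.16 to 5.295 in wild-type bone on its only probe. These values are below the floor and were not tested.

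The angiopoietin receptors did not pass either. Tek read 279, 186, 233 and 212 in Ali35 bone, against 307, 273, 249 and 232 in wild-type bone. It was the only tested endothelial gene of the 10 with a negative log2 change, -0.23 ± 0.15 (interval -0.55 to 0.10, adjusted p = 0.274, limma), and the groups overlapped. Tie1, the co-receptor of Tek, read 119.7, 86.0, 87.2 and 82.9 in Ali35 bone, against 64.8, 89.0, 100.05 and 75.5 in wild-type bone. Replicate 1 stood above all other arrays and the other 3 Ali35 arrays lay within the wild-type range. The log2 change was 0.19 ± 0.17 (interval -0.18 to 0.57, adjusted p = 0.423, limma), and 0.07 without Ali35 replicate 1.

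The 4 calls did not rest on 1 array. Ali35 replicate 1, in which Xist was read, was the highest Ali35 array for 9 of the 11 probes, Eng and Robo4 being the exceptions, and Ali35 replicate 2 was the lowest for 8. Without Ali35 replicate 1 the log2 changes were 1.02 for Eng, 0.75 for Robo4, 0.65 for Cdh5 and 0.61 for Sox18, and all 4 passed. Tek then had -0.33, the brighter Sox17 probe -0.09 and the Pecam1 probes 0.14 and -0.01, and none of these passed. When each of the 8 bone arrays was left out in turn, the highest adjusted p was 0.00535 for Eng, 0.0213 for Robo4, 0.0221 for Cdh5 and 0.0148 for Sox18 (limma). The groups did not overlap for these 4 of 11 probes, against 28.7% of all bone probes and 13.5% with Ali35 above wild type.

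In brain at 3 days 0 of the 6 tested endothelial probes were called by limma, where 3.64% of all probes were called (1.9% higher and 1.74% lower in Ali35), and 1 of the 6 had an unadjusted p under 0.05, against 23.6% of all brain probes. The 6 were Eng, Robo4, Sox18, Flt1, Tek and the brighter probe of Pecam1. The groups overlapped for all 6, while they did not for 15.7% of all brain probes (8.78% with Ali35 above wild type). Cdh5, Tie1, both Sox17 probes, Kdr and the second Pecam1 probe were too dim to be tested. The median log2 change was 0.03 over the 6 tested probes, against 0.01 over all brain probes.

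**Figure D2:**
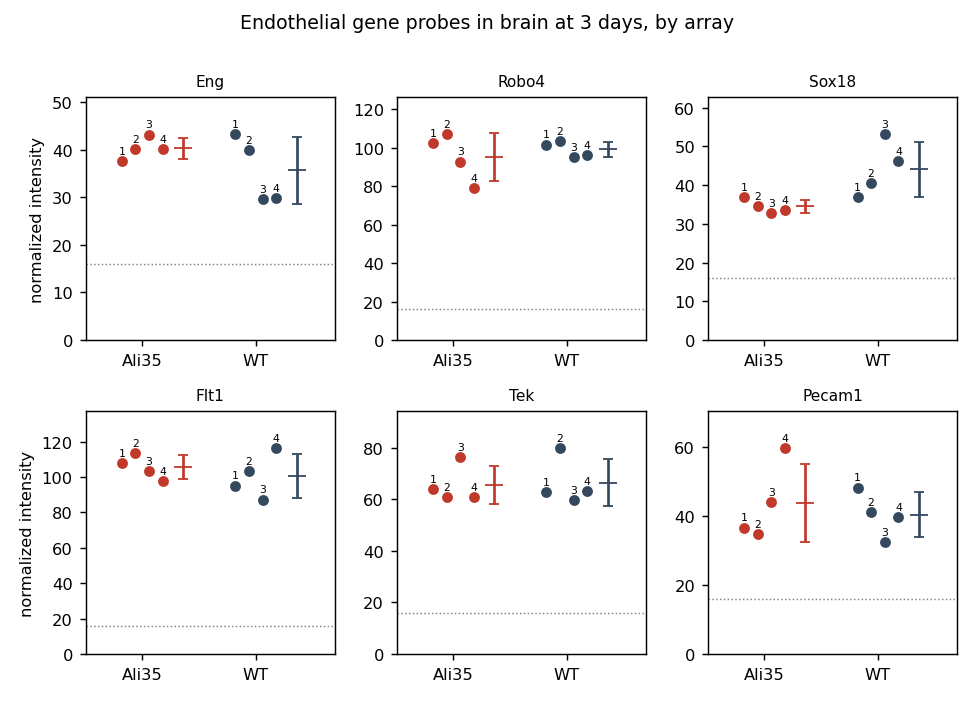
Normalized intensity (arbitrary units, linear axis from 0) of the 6 tested endothelial gene probes on each brain array at 3 days, with replicate numbers above the points, Ali35 in red and wild type (WT) in blue. Bars give mean ± SD of 4 mice and the dotted line is the floor of 16. The groups overlap in every panel, and for Sox18 3 of the 4 Ali35 arrays lie below all wild-type arrays.

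Sox18 was the member with the lowest p in brain. It read 36.9, 34.6, 32.9 and 33.6 in Ali35 brain, against 36.8, 40.6, 53.2 and 46.1 in wild-type brain. The means were 34.5 ± 1.77 and 44.2 ± 7.11 (Ali35 and wild type, SD, n = 4 each), a log2 change of -0.34 ± 0.12 that did not pass (unadjusted p = 0.0156, adjusted p = 0.125, limma). Eng read 37.5, 40.1, 43.1 and 40.1 in Ali35 brain, against 43.2, 39.9, 29.5 and 29.8 in wild-type brain, and its log2 change was 0.19 ± 0.14 (interval -0.11 to 0.50). The other changes were small: Robo4 had -0.06 ± 0.11, Flt1 0.08 ± 0.11, Tek -0.02 ± 0.12 and Pecam1 0.10 ± 0.18. The brain intervals of Eng, Robo4 (-0.31 to 0.18), Sox18 (-0.61 to -0.08) and Flt1 (-0.16 to 0.32) did not reach their changes in bone. That comparison leaves out the error of the bone changes.

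Kdr was brighter in brain than the floor on some arrays only. It read 17.3, 16.9, 13.1 and 13.5 in Ali35 brain, against 11.4, 14.2, 13.8 and 11.3 in wild-type brain, so that 2 Ali35 arrays and 0 wild-type arrays reached 16. Kdr was the only 1 of the 15 probes whose median was higher in brain (13.7) than in bone (4.72) among those that reached the floor anywhere. Eng had a median of 273 in bone and 40.0 in brain, and Robo4 540.4 and 98.8. Tek had 241 in bone and 63.0 in brain, and Flt1 476 and 103. Because normalization was done separately in bone and brain, these levels cannot be compared as amounts, and age differed too.

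The difference between tissues was tested for the 6 probes measured in both, as the Ali35 change in bone minus that in brain. For Eng it was 0.83 ± 0.19 (log2 ± SE, adjusted p = 0.00479), for Robo4 0.82 ± 0.18 (adjusted p = 0.00368) and for Sox18 1.03 ± 0.16 (adjusted p = 0.000488), by a limma interaction term over 9225 probes. These 3 of 6 passed, where 24.4% of all probes passed and 12.9% with a positive difference. Flt1 (0.28 ± 0.20, interval -0.15 to 0.71), Tek (-0.21 ± 0.19, interval -0.61 to 0.19) and Pecam1 (0.06 ± 0.21, interval -0.37 to 0.50) did not pass. Cdh5 could not be tested for this difference, since it was too dim in brain.

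**Figure D3:**
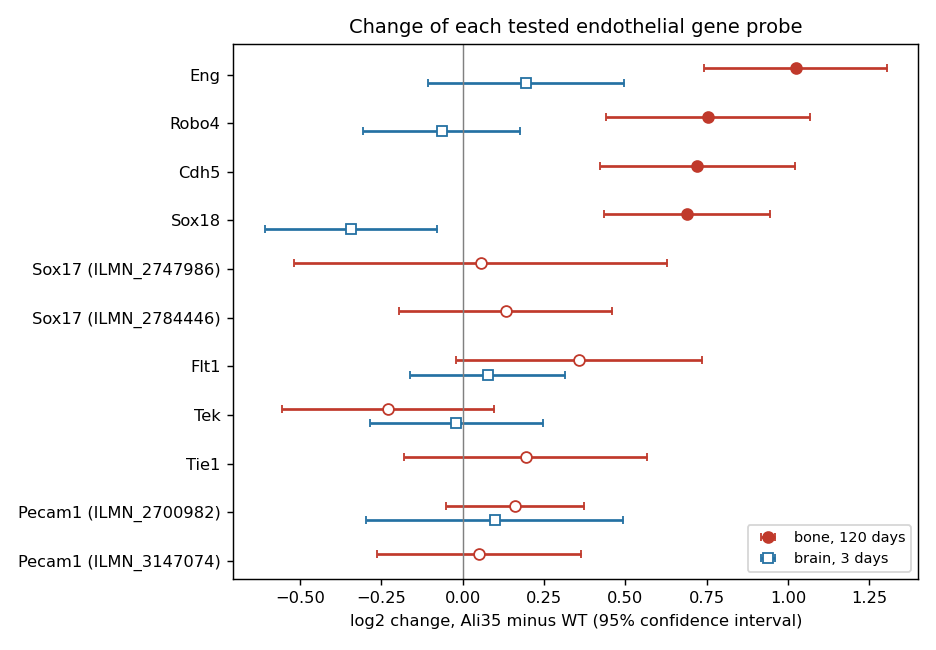
Log2 change, Ali35 minus wild type (WT), with the 95% confidence interval, for the 11 endothelial gene probes tested in bone (red circles) and the 6 tested in brain (blue squares). Filled symbols have an adjusted p under 0.05: Eng, Robo4, Cdh5 and Sox18 in bone, whose intervals lie above 0. Probes without a blue symbol were too dim in brain.

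Other endothelial genes were read from a list of 40, of which 28 were tested in bone. In Ali35 bone 6 were higher (Vwf, Stab1, Plvap, Nos3, Stab2 and Aplnr) and 2 lower (Bmx and Egfl7). By probe this was 8 higher of 36, beside 12.7% of all bone probes, and 2 lower, beside 11.9%. Vwf, the clotting factor stored by endothelial cells and platelets, read 1871, 1665, 1418 and 1757 in Ali35 bone, against 741, 853, 782 and 724 in wild-type bone. The groups lay far apart, with a log2 change of 1.11 ± 0.11 (2.16-fold, adjusted p = 0.000597, limma). Plvap, which forms the diaphragms of fenestrated and sinusoidal vessels, averaged 641 ± 101 in Ali35 and 345 ± 77.2 in wild type (SD, n = 4 each), a log2 change of 0.91 ± 0.17. The scavenger receptor genes of sinusoidal endothelium, Stab1 and Stab2, had 0.92 ± 0.14 and 0.42 ± 0.11.

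Nos3, the endothelial nitric oxide synthase, was called higher on each of its 3 probes, with log2 changes of 0.55 ± 0.15, 0.69 ± 0.17 and 0.75 ± 0.22. Aplnr, the apelin receptor of growing vessels, had 0.58 ± 0.18. Bmx, an arterial tyrosine kinase gene, had -0.38 ± 0.11. Egfl7, a secreted matrix protein of endothelial cells, had -0.39 ± 0.12 on a dim probe that 2 Ali35 arrays did not bring to the floor, and -0.18 and -0.13 on its other probes, which did not pass. Vwf, Stab1 and Plvap kept their calls whichever array was left out. The call of each Nos3 probe and those of Stab2, Aplnr, Bmx and Egfl7 ended when some single arrays were left out (highest adjusted p 0.108). Emcn, a sialomucin gene of capillaries and sinusoids, and Sox7, the third gene of the family of Sox17 and Sox18, were picked out after their values were seen. Neither passed: Emcn had -0.39 ± 0.13 (adjusted p = 0.0586), and Sox7 had 0.81 ± 0.29 and 0.30 ± 0.15 on its probes (adjusted p = 0.0642 and 0.170, limma).

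Of 17 tested ligands and partners of the receptors, 3 were higher in Ali35 bone (Unc5b, Vegfb and Vegfd) and 2 lower (Angpt1 and Id1). By probe this was 3 higher and 2 lower of 22, near the shares of all bone probes, 12.7% and 11.9%. Angpt1, the activating ligand of Tek, read 23.4, 23.8, 28.4 and 9.05 in Ali35 bone, against 48.4, 41.3, 37.5 and 56.1 in wild-type bone. All Ali35 values lay below all wild-type values, and the log2 change was -1.01 ± 0.19 (adjusted p = 0.00641, limma). Ali35 replicate 4 was below the floor, and over all alternatives the change ranged from -1.22 to -0.50. Unc5b, a netrin receptor that also binds Robo4, averaged 164 ± 50.2 in Ali35 and 81.9 ± 19.1 in wild type, a log2 change of 0.99 ± 0.23 (adjusted p = 0.0153).

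Vegfb and Vegfd, ligands of the VEGF receptor family, had 0.61 ± 0.16 and 0.74 ± 0.21, and 1 wild-type Vegfd array lay below the floor. Over all alternatives the Vegfd change ranged from 0.27 to 0.90. Id1, a target gene of BMP signalling through Acvrl1 and Eng, had -0.63 ± 0.15. The calls of Vegfb, Vegfd and Id1 ended when some single arrays were left out (highest adjusted p 0.0721), while Angpt1 and Unc5b kept theirs. Tgfbr2, a TGF-beta receptor gene, had 0.24 ± 0.10 and did not pass. Of 12 of these genes tested in brain, 0 were called by limma, and 3 of 16 probes had an unadjusted p under 0.05, beside 23.6% of all brain probes. The lowest p there was that of Slit2, a ligand of Robo receptors (0.38 ± 0.10, adjusted p = 0.0642).

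Notch signalling takes part in setting the arterial fate of endothelial cells. Of 7 tested genes in the list of Notch and other vessel genes, the receptors Notch4 and Notch1 were higher in Ali35 bone, beside 12.7% of all bone probes. The ligand, target and ephrin receptor genes Jag2, Dll1, Hey1, Hes1 and Ephb4 did not pass. Notch4, the Notch receptor found mainly on endothelial cells, read 399, 269, 286 and 332 in Ali35 bone, against 168, 197, 164 and 160.06 in wild-type bone. The groups did not overlap, and the log2 change was 0.89 ± 0.14 (1.85-fold, adjusted p = 0.00331, limma). Notch1 averaged 191 ± 14.9 in Ali35 and 115 ± 23.3 in wild type (log2 0.76 ± 0.15, adjusted p = 0.0079). Both kept their calls whichever array was left out. Hey1, a Notch target gene, had 0.32 ± 0.15 and did not pass. In brain 1 of 8 tested probes of the Notch list was called higher, beside 1.9% of all brain probes. It was that of Nr2f2, a transcription factor of veins that neurons also use (0.85 ± 0.15, adjusted p = 0.0223, limma). That call was lost without 5 of the 8 arrays in turn. Of the junction partners of VE-cadherin, 0 of 4 tested genes were called in bone and 0 of 4 in brain by limma, beside 24.6% and 3.64% of all probes. At an unadjusted p under 0.05 there were 1 of 7 probes in bone and 2 of 5 in brain, beside 38.3% and 23.6% of all probes. The lowest p in bone was that of Ctnna1, which encodes alpha-catenin (0.25 ± 0.09, adjusted p = 0.0819).

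**Figure D4:**
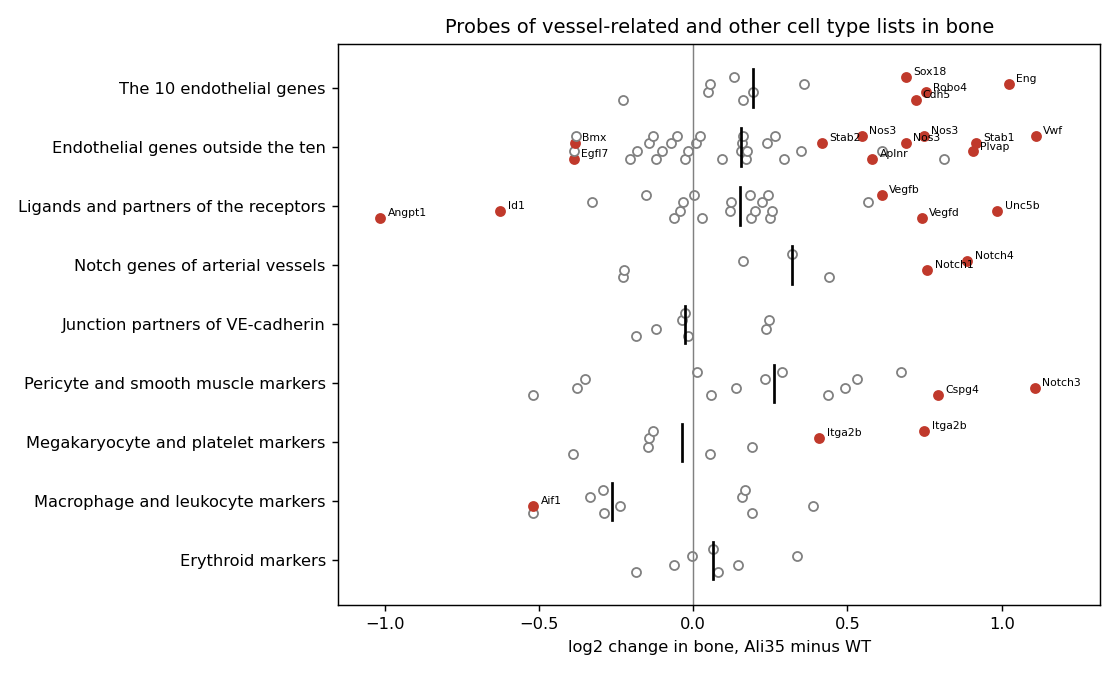
Log2 change in bone, Ali35 minus wild type (WT), of each tested probe of the 10 endothelial genes and of 8 further lists. Filled red points have an adjusted p under 0.05 and carry the gene name, and the black line is the median of the list. The median is 0.19 for the 10 genes, 0.16 for other endothelial genes and 0.15 for ligands and partners. It is 0.32 for the Notch list, 0.26 for pericyte and smooth muscle markers and 0.06 for erythroid markers. Medians below 0 are -0.03 for junction partners, -0.04 for platelet markers and -0.26 for macrophage and leukocyte markers.

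Markers of other cells of the vessel wall and of blood were read beside these results. In bone 2 of 10 pericyte and smooth muscle genes were called, Notch3 (log2 1.11 ± 0.12) and the pericyte proteoglycan gene Cspg4 (0.79 ± 0.16), both higher. By probe this was 2 of 14, near the 12.7% of all bone probes called higher. Over the 14 probes the median log2 change was 0.26 and 11 were positive. Other members lay on both sides of 0 without passing, among them the pericyte genes Pdgfrb (0.49 ± 0.16) and Rgs5 (-0.52 ± 0.19). The summed intensity of that list ranged from 5274 to 8591 in Ali35 and from 5100.2 to 6334 in wild type. Of 6 platelet genes Itga2b, an integrin of megakaryocytes, was called higher on both probes (0.75 ± 0.18 and 0.41 ± 0.13, the second lost without 6 of the 8 arrays in turn), while Pf4 had 0.06 ± 0.10. Over the 8 probes of the platelet list 2 were called higher, beside 12.7% of all bone probes. Their median was -0.04 and 4 were positive. The summed platelet list ranged from 20211 to 23442 in Ali35 and from 23289 to 26341 in wild type, and the bright Ppbp probes, which did not pass (-0.39 ± 0.18 and -0.13 ± 0.10), made up much of that sum. Of 7 macrophage and leukocyte genes Aif1 was called lower on 1 of its probes (-0.52 ± 0.14, lost without 6 of the 8 arrays in turn) and had 0.17 ± 0.13 on the other. Their summed level was 15825 to 23710 in Ali35 bone and 27000 to 28931 in wild-type bone. Most of that sum came from the lysozyme gene Lyz2, whose probes did not pass (-0.52 ± 0.18 and -0.29 ± 0.10). Of the 10 probes 1 was called lower, beside 11.9% of all bone probes, and 4 were positive, among them Itgam (0.39 ± 0.15), which did not pass. Of 7 erythroid genes 0 were called in bone by limma, beside 24.6% of all bone probes. At an unadjusted p under 0.05 there was 1 (Slc4a1, 0.34 ± 0.13), beside 38.3% of all bone probes. All 7 macrophage and all 7 erythroid genes with a probe, and 6 of 7 platelet genes, were above the filter in bone. The part of these lists in the endothelial results was not tested.

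In brain the endothelial list gave 1 called gene of 26, Mmrn2, a matrix protein of endothelial cells (log2 0.42 ± 0.10, adjusted p = 0.0493, limma), beside 3.64% of all probes. Its call was lost whichever of the 8 arrays was left out, and over all alternatives the change ranged from 0.24 to 0.47. Acta2, the actin of smooth muscle, was higher in Ali35 brain on 1 of its probes (0.82 ± 0.14, lost without 3 of the 8 arrays in turn). This was 1 of 8 probes of the pericyte and smooth muscle list, beside 1.9% of all brain probes called higher. The summed list ranged from 853 to 999 in Ali35 brain and from 561 to 772 in wild-type brain. A brighter Acta2 probe, which did not pass (0.57 ± 0.15), made up much of that sum. It read 436 to 567 in Ali35 and 252 to 425 in wild type. Of 4 erythroid genes Alas2 was called lower (-1.19 ± 0.28, lost without 7 of the 8 arrays in turn), beside 1.74% of all brain probes. Of the 4 probes 0 were positive. The summed erythroid list ranged from 3591 to 7035 in Ali35 brain and from 6740 to 11987 in wild-type brain. Most of that sum came from the hemoglobin gene Hba-a1, which did not pass (-0.95 ± 0.24). It read 3453 to 6850 in Ali35 and 6533 to 11629 in wild type. The part of these lists in the brain values was not tested either.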

How the data were processed

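RNA had been labelled with biotin and hybridized to Illumina bead arrays, 1 array per mouse, per the labels' protocols. The deposited values were linear intensity values, made with GenomeStudio 2011.1 per the submitters' processing notes. Values below 0 show that background had been subtracted, and nearly equal quartiles among the 8 arrays of a tissue show normalization within the tissue whose method the sources used here do not give. A table of non-normalized values had 32 columns whose names matched no label, and it was not used. The 23978 probes with 1 symbol were named from the platform annotation, and 1719 had none.

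Bone and brain had separate fits in limma 3.58.1 under R 4.3.3, using lmFit and eBayes with default settings on log2 intensity with the floor of 16, and the difference between tissues was fitted as an interaction over all 16 arrays. Errors of log2 changes are moderated standard errors (SE). The number of mice limits the precision. Tested on simulated data, the bone fit recovered 74% of 2-fold and 41% of 1.5-fold changes, and the brain fit 87% and 46%. Fewer probes were changed in the simulation than were called in bone or brain, so these rates hold for that setting only. Members, lists, floor and filter were chosen with earlier results of these data known. All member probes were named, and of each list all called endothelial, ligand, Notch and junction genes and up to 6 genes of lowest p, besides Emcn and Sox7. Alternatives covered floor, filter, scaling, variance model, threshold, a block by replicate number and leaving out each array. Same-numbered arrays of the 2 genotypes are different mice.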

Additional observations from a re-analysis of the deposited data

Results flagged for a closer look

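Tie1 in Ali35 bone replicate 1 read 119.7, while the other 3 Ali35 bone arrays read 82.9 to 87.2, a gap large for a group of 4. It was the only such value among the 34 sets of 4 arrays examined, where about 1 in 20 would be marked by chance. The same array carried the Xist signal.

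The change in bone differed from that in brain for 3 genes by the interaction test: Eng (0.83), Robo4 (0.82) and Sox18 (1.03), all higher in bone on the log2 scale. For Sox18 the log2 change was 0.69 in bone and -0.34 in brain. Age and tissue cannot be told apart in these differences.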

How the results depend on the processing

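The 4 calls in bone, Eng, Robo4, Cdh5 and Sox18, held under all 17 alternatives run for each, with adjusted p up to 0.0364 (Robo4), and the 3 interaction calls held under all 20. No member probe was called lower in bone or called at all in brain under any alternative. The same replicate number marks different mice, and the correlation of deviations between same-numbered arrays ranged from -0.116 to 0.163 in bone and 0.012 to 0.140 in brain. Between differently numbered arrays it ranged from -0.206 to 0.230 in bone and -0.153 to 0.170 in brain. In brain 3 Ali35 arrays correlated best with the wild-type array of their own number, and in bone 1 did. With the replicate block, 2335 bone probes, 206 brain probes and 2078 interaction probes were called, and the 4 bone calls stayed. Over all probes, the 3006 calls in bone became 1430 with no filter and 1034 at an adjusted p under 0.01, and 1639 to 2639 when single arrays were left out, lowest without wild-type replicates 4 and 1 (1765). The 398 in brain became 165 with a floor of 8, 576 with a floor of 32, 19 with no filter, 850 with trend and robust variance, 8 at an adjusted p under 0.01, and 43 to 240 without single arrays. Left-out arrays turned the sign of small changes that were not called: Sox17 in bone (brighter probe, -0.140 to 0.240), the second Pecam1 probe in bone (-0.008 to 0.152), and in brain Robo4 (-0.124 to 0.023), Tek (-0.095 to 0.073) and Pecam1 (-0.062 to 0.197), as well as the Pecam1 difference between tissues (-0.035 to 0.224). With no filter on dim probes the calls of Unc5b, Vegfb, Vegfd, Id1, Nos3, Stab2, Aplnr, Bmx, Egfl7, Itga2b and Aif1 in bone and of Mmrn2, Nr2f2, Acta2 and Alas2 in brain were lost, and the cause was not tested. Signal over background limits Kdr, Sox17 and, in brain, Cdh5 and Tie1.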
